A study of Rattus norvegicus with 10 samples.

Results

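Genes that bind or move zinc are described here in the cavernosal tissue of the rat penis: the metallothioneins Mt1, Mt2A and Mt3, the zinc importer Slc39a8 and the zinc exporter Slc30a1. Each was read through the probe sets that the platform annotation assigns to it alone. This gave 1 probe set for each of the 5 genes, out of 10411 genes named on the array. The genes were chosen by a rule that used their diabetic and control values, so their differences between the groups are given as descriptions with no test. The diabetic group held 5 samples of inbred F344 rats given streptozotocin, which destroys the insulin-making beta cells of the pancreas, at 10 weeks. The control group held 5 samples of the same strain. Total RNA of each sample was hybridised to 1 Affymetrix RAE230A array. The model is one of insulin lack. The labels name no transgene, age or pooling.

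Metallothioneins are small, cysteine-rich proteins that bind zinc and copper in clusters and release them, and that also react with oxidants. Their transcription rises when free zinc binds the transcription factor MTF-1, which then attaches to metal response elements in their promoters. Glucocorticoids, inflammatory cytokines and oxidants also raise Mt1 and Mt2A, while Mt3 is best known from neurons. ZIP proteins, encoded by Slc39 genes, carry zinc into the cytosol from outside the cell or from vesicles. ZnT proteins, encoded by Slc30 genes, carry it out of the cytosol, and Slc30a1 is itself a target of MTF-1.

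The promoters were searched for the core letters of the element to which MTF-1 binds, and a match to them is not a tested binding site. All 5 matched RefSeq entries of the GRCr8 assembly, in windows from 250 bases before to 50 bases after the transcription start. The windows below are those with at least 1 match to the metal response element core, TGCACNC or TGCGCNC on either strand. The matches are in capitals and each window runs 5′ to 3′ on the strand of its gene. Mt1 lies on the minus strand with its window at chr19:10832926-10833225. The Mt2A window is at chr19:10838659-10838958 on the minus strand. The Mt3 window is at chr19:10856031-10856330 on the minus strand. The Slc30a1 window is at chr13:106021769-106022068 on the plus strand.
Mt1: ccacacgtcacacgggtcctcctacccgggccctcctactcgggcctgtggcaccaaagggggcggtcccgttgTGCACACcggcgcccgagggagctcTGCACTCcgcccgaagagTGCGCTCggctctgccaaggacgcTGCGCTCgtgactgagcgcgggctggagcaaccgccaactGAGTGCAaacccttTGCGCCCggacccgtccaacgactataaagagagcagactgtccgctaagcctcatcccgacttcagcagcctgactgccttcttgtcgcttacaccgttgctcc
Mt2A: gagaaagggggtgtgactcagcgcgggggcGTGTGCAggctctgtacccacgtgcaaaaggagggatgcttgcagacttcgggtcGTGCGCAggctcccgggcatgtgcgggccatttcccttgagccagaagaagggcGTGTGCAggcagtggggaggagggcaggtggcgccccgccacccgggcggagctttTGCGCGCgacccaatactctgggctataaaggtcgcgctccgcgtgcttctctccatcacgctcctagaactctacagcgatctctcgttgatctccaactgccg
Mt3: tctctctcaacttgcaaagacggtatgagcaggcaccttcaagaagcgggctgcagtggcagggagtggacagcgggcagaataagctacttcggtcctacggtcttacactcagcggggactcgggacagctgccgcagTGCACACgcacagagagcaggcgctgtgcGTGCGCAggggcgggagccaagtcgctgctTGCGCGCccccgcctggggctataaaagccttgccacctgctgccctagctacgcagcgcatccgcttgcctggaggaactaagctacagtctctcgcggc
Slc30a1: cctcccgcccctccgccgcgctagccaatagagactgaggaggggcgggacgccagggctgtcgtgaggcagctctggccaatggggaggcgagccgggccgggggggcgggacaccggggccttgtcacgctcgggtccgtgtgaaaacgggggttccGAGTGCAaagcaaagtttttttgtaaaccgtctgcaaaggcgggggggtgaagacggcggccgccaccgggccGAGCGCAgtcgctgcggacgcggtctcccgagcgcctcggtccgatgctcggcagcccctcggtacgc

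Mt1 held 6 matches to the core, Mt2A 4, Mt3 3 and Slc30a1 2. Of the 33469 rat promoters of the same length, 24.2% held at least 1 match, 6.36% at least 2, 1.68% at least 3, 0.439% at least 4 and 0.0388% at least 6. The windows of the 5 genes had a GC content of 59.3% to 70.3%, against a median of 51.7% over all promoters, and base composition bears on how often such a core is met. The Slc39a8 window, at chr2:226929941-226930240 on the plus strand, held 0 matches and lies inside the span of a gene with 7 annotated transcripts, whose other starts were not searched. A TATAAA box stood on the gene strand in all 3 metallothionein windows, starting 31 or 32 bases before the start, and in 8.8% of all promoters. The antioxidant response element core TGACNNNGC, searched on both strands, had 1 match in each of Mt1, Mt2A, Slc39a8 and Slc30a1 and none in Mt3, against 12.1% of all promoters with at least 1. The glucocorticoid receptor half-site AGAACA had 0 matches in all 5 windows and occurred in 20.7% of all promoters. No match to the metal, antioxidant or TATA letters overlapped another. The 3 metallothionein genes stand together on chromosome 19, with 4959 bases between Mt1 and Mt2A and 15968 bases between Mt2A and Mt3.

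**Figure D1:**
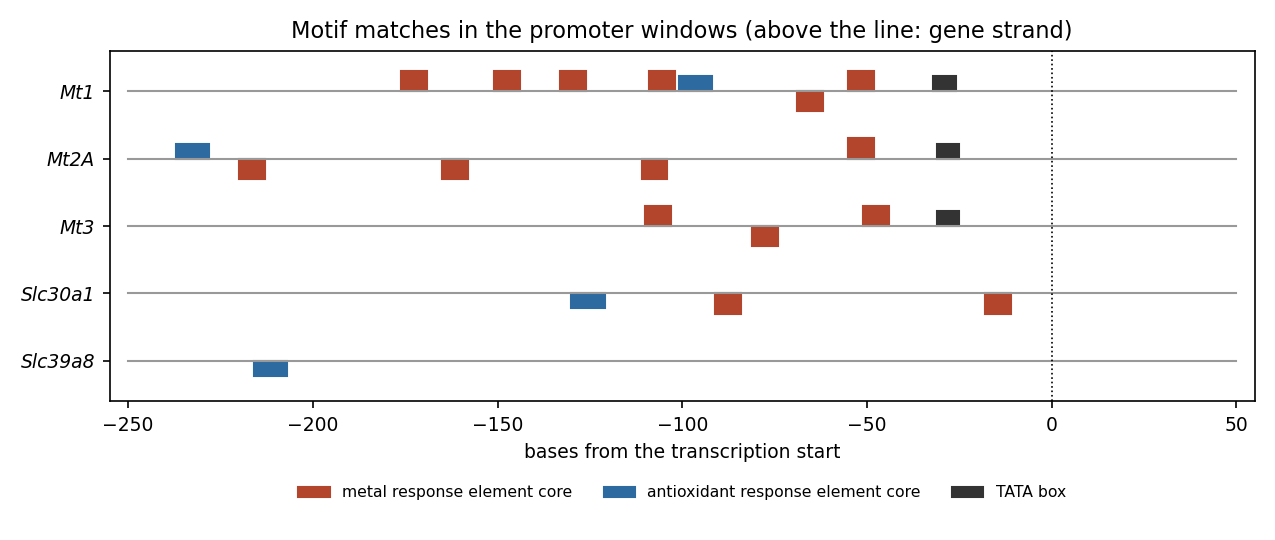
Positions of motif matches in the 5 promoter windows, in bases from the transcription start, with matches on the gene strand above each line and on the other strand below it. The metal response element core (red) appears 6 times in Mt1, 4 times in Mt2A, 3 times in Mt3 and 2 times in Slc30a1, and not in the Slc39a8 window.

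The values are deposited probe set intensities, and differences are on the log2 scale after adding 16 to each intensity. The arrays had the same trimmed mean of 249.9 and medians of 116.8 to 131.4, so none was rescaled. A probe set was tested when at least 5 of the 10 arrays exceeded an intensity of 85.9, which left 9683 probe sets. The labels list separate samples without naming the animals, so each p-value reflects variation among these samples, and 5 arrays a group set the precision. On the array, 10 of 10 smooth muscle and 7 of 7 endothelial genes passed the intensity filter. So did 11 of 11 skeletal muscle genes, 17 of 18 epithelial and gland genes and 9683 of all 15866 probe sets, so passing does not identify a tissue. Summed intensities per array were 54993 to 85924 for the skeletal and 12823 to 18208 for the smooth muscle list. All 11 skeletal muscle differences were negative. In limma 0 passed the adjusted threshold and 5 had an unadjusted p under 0.05, against 17.5% of all tested probe sets. The part of skeletal muscle signal in the member differences was not tested. Control arrays 1, 2 and 4 stood apart in the epithelial and gland list, with summed intensities of 1266, 2332 and 6866. The 5 diabetic arrays ranged over 19089 to 32188 in that sum, and control arrays 3 and 5 had 22535 and 34646. Arrays were scanned on 4 days and 2 scanner stations: station 1 held diabetic array 2 with controls 1, 2, 3 and 5, and station 2 held diabetic arrays 1, 3, 4 and 5 with control 4.

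Slc39a8, which encodes the zinc importer ZIP8, was brighter on every diabetic array than on any control array. ZIP8 also carries manganese and iron in mammals. Its intensities were 438.7, 379.1, 316.0, 321.3 and 259.6 on the diabetic arrays, against 139.0, 128.4, 184.3, 207.1 and 120.0 on the control arrays. The groups did not overlap, and the dimmest diabetic array stood above the brightest control array. The same pattern was met in 2.36% of all tested probe sets. The mean was 343 ± 68.2 in diabetic and 156 ± 37.9 in control tissue (SD, n = 5 each), a difference of 1.07 ± 0.17 (limma SE) on the log2 scale or 2.10-fold. In bulk tissue, a change in the number of cells that hold a transcript and a change in its amount per cell cannot be told apart.

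As the groups did not overlap, the difference could only be positive within each scan day and station. It was 1.44 on day 1, from 1 diabetic and 2 control arrays. Day 2 gave 1.03 from 1 array of each group, and day 3 gave 0.84 from 2 of each. Within scanner station 1 the difference was 1.33 and within station 2 it was 0.63. Epithelial signal was also higher on most diabetic arrays, and control arrays 3 and 5, with epithelial means of 9.55 and 10.03 on the log2 scale, fell inside the diabetic range of 9.16 to 10.08. Those control arrays had Slc39a8 intensities of 184.3 and 120.0, and like every control array they lay below all 5 diabetic arrays. With the epithelial mean as a covariate the Slc39a8 difference was 0.99, and against controls 3 and 5 alone it was 1.10. Adipocyte markers also moved with the groups: of 7 on the array 5 were tested, Plin1 and Lep being too dim, 4 of the 5 differences were positive, and their mean log2 level was 8.17 to 8.81 on the diabetic arrays and 7.16 to 8.24 on the control arrays. In limma 2 of the 5 passed the adjusted threshold, against 0.217% higher over all tested probe sets, namely Lpl at 1.41 (limma adjusted p = 0.0108) and Cidea at 1.15 (limma adjusted p = 0.0413), while Cfd stood at -0.56 (limma adjusted p = 0.485). The part of the epithelial and adipocyte signal in the Slc39a8 difference was not tested. Of the 4 members that passed the intensity filter, 1 passed a Benjamini-Hochberg adjusted p of 0.05 in limma, and this was Slc39a8, against 0.423% of the 9683 probe sets. That difference was part of why the gene was chosen, so nothing is read from the count, and 13 of 23 alternative settings ended it.

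**Figure D2:**
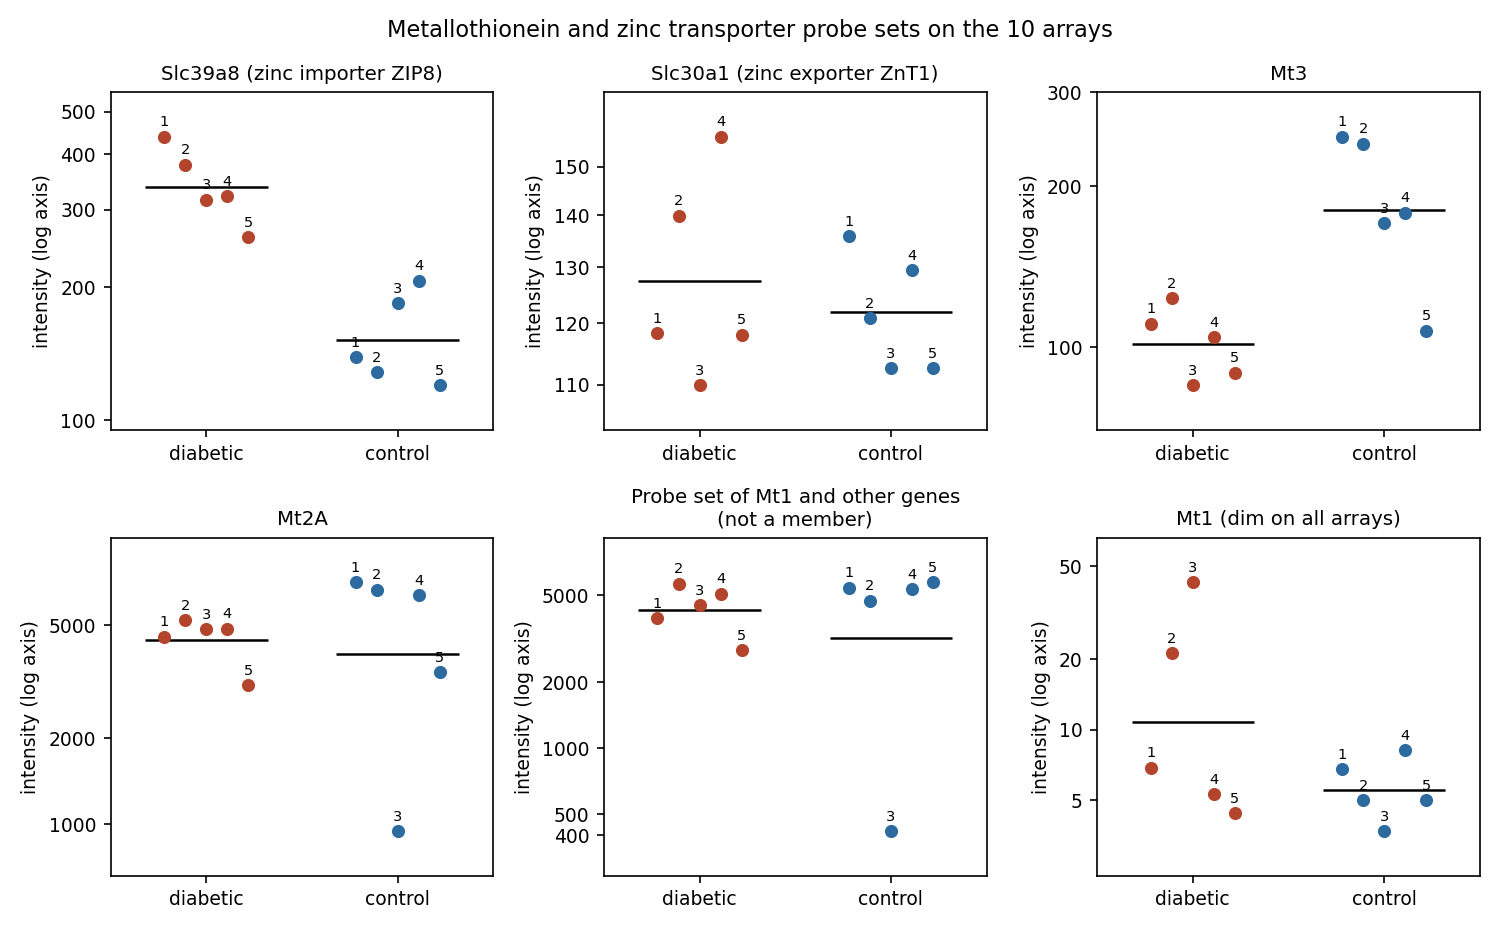
Intensity on a log axis of the probe sets of Slc39a8, Slc30a1, Mt3, Mt2A and Mt1 and of a probe set that Mt1 shares with other genes, on 5 diabetic (left) and 5 control arrays (right). Points carry the array number and bars are geometric means. The Slc39a8 groups do not overlap, Mt3 overlaps through control array 5 alone, and control array 3 is far below the rest in Mt2A (946.4) and in the shared probe set (418.9).

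The rest of the ZIP family was read in the same fit. Of 13 other listed ZIP genes, 8 were on the array and 7 were tested. With limma, 0 of the 7 passed the adjusted threshold and 0 had an unadjusted p under 0.05, against 17.5% of all tested probe sets. Differences ran from -0.39 to 0.33, with a median of 0.14 beside 0.047 over all tested probe sets, and 4 were positive. The lowest was Slc39a14, whose product ZIP14 is the closest relative of ZIP8 and carries zinc, iron and manganese. It had intensities of 324.5, 368.9, 425.6, 361.0 and 295.0 on the diabetic arrays, against 432.7, 615.7, 296.3, 723.5 and 384.2 on the control arrays. The groups overlapped, and the diabetic arrays were the less variable. Its difference of -0.39 ± 0.22 did not pass the test (limma adjusted p = 0.363). Slc39a13, the ZIP13 gene needed for connective tissue in mice and people, had a difference of -0.26 ± 0.13 (limma adjusted p = 0.308). Slc39a3 differed by 0.33 ± 0.19, Slc39a7 by 0.18 ± 0.27, Slc39a10 by 0.15 ± 0.13, Slc39a11 by 0.14 ± 0.36 and Slc39a1 by -0.08 ± 0.14.

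Slc30a1, which encodes the plasma membrane zinc exporter ZnT1, had close values in both groups. Its intensities were 118.3, 139.9, 109.9, 156.5 and 118.1 on the diabetic arrays, against 135.8, 120.9, 112.6, 129.4 and 112.6 on the control arrays. The groups overlapped, and the lowest and the highest of the 10 values were both diabetic. The means were 129 ± 19.2 in diabetic and 122 ± 10.3 in control tissue (SD, n = 5 each), a difference of 0.06 ± 0.11 on the log2 scale. The sign varied among scan days 1 to 3, at 0.16, -0.11 and 0.20.

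Of 9 other listed ZnT genes, 7 were on the array and 6 were tested. In limma 0 of the 6 passed the adjusted threshold and 1, Slc30a4, had an unadjusted p under 0.05, a share near the 17.5% of all tested probe sets. The median difference was 0.28, the range -0.06 to 0.49, and 5 of 6 were positive. Slc30a4, a vesicle transporter that loads zinc into milk in mice, averaged 215 ± 33.3 in diabetic and 174 ± 20.3 in control tissue (SD, n = 5 each), a difference of 0.28 ± 0.12 (limma adjusted p = 0.268). Slc30a5, whose product ZnT5 supplies zinc to enzymes of the secretory pathway, had 261.3, 321.9, 321.9, 248.7 and 257.7 on the diabetic arrays, against 130.7, 142.5, 263.3, 152.4 and 373.5 on the control arrays. Control arrays 1, 2 and 4, which had the least epithelial signal, were the 3 lowest of the 10 arrays, while controls 3 and 5 lay in or above the diabetic range. Its difference of 0.49 ± 0.25 did not pass (limma adjusted p = 0.335), and with the epithelial mean as a covariate it was -0.04. Without control 5 it was 0.71 and passed the adjusted threshold. In that setting 1068 of the 9683 tested probe sets passed, against 41 with all arrays. Slc30a6, the partner of ZnT5, differed by 0.28 ± 0.22 and Slc30a7 by 0.27 ± 0.29. With the epithelial covariate these became -0.10 and -0.28.

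**Figure D3:**
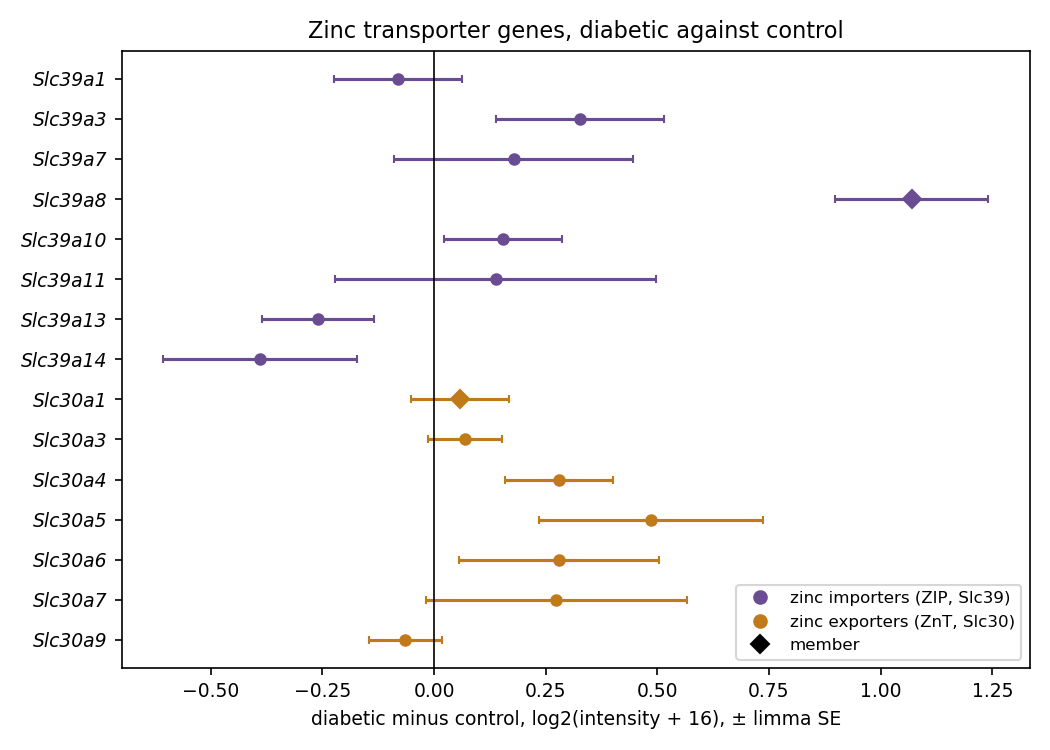
Difference between diabetic and control arrays on the log2 scale, with the limma standard error, for the 8 importer and 7 exporter genes that passed the intensity filter, with diamonds for Slc39a8 and Slc30a1. Slc39a8 stands at 1.07 and the other transporters lie between -0.39 and 0.49. Slc39a8 and Slc30a1 were chosen with these values known.

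Mt2A, one of the metal-induced metallothioneins expressed in most tissues, varied less across diabetic arrays than across control arrays. Its intensities were 4551, 5204, 4837, 4852 and 3080 on the diabetic arrays, against 7064, 6660, 946.4, 6361 and 3420 on the control arrays. The highest diabetic value was 1.69 times the lowest, and the highest control value was 7.46 times the lowest. This was not particular to Mt2A. The diabetic and control SDs on the log2 scale were 0.30 and 1.22 for Mt2A, 0.19 and 0.44 for Mt3 and 0.27 and 0.31 for Slc39a8. They went the other way for Slc30a1, at 0.19 and 0.11, and for the dim Mt1, at 0.66 and 0.12. The share of all probe sets with less diabetic spread was not counted. Control array 3 was the lowest of all 10, at 6.21-fold below the mean of 5876 ± 1663 (SD, n = 4) of the other controls. The group means were 4505 ± 829 in diabetic and 4890 ± 2633 in control tissue (SD, n = 5 each). On the log2 scale the difference had the other sign, at 0.16 ± 0.48, and was less than the spread between arrays. That 1 library set the sign: without control 3 the difference was -0.35, and against controls 3 and 5 alone it was 1.29. The scan days gave 0.08, -0.48 and 0.62.

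Mt1 could not be followed by its own probe set, whose intensity stayed between 3.7 and 42.7 on all 10 arrays and passed the filter on 0 of them. It had 6.9, 21.3, 42.7, 5.3 and 4.4 on the diabetic arrays, against 6.8, 5.0, 3.7, 8.2 and 5.0 on the control arrays. The groups overlapped, the 2 highest values were diabetic, and the table has no detection calls by which to say that any was below background. A second probe set is annotated to 3 genes, one of them Mt1, so its signal cannot be assigned to Mt1 and it is given as a comparison. It read 3922, 5648, 4505, 5089 and 2807 on the diabetic arrays, against 5418, 4716, 418.9, 5319 and 5724 on the control arrays. Control array 3 was again the lowest, 12.6-fold below the mean of 5294 ± 422 (SD, n = 4) of the other controls. The difference between groups was 0.42 ± 0.64, with overlap. Across the 10 arrays, as deviations from group means, this probe set and Mt2A had a Pearson r of 0.92 and a Spearman rho of 0.65. Without control array 3 the r was 0.67, so much of it rests on that array.

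The low array was low in other inducible genes too. Control 3 was the lowest of the 5 controls for 10 of 13 tested glucocorticoid-induced genes, 4 of 6 cytokine and acute-phase genes and 5 of 9 oxidant and metal stress genes. Over all tested probe sets it was the lowest control for 12.8%. Cebpd, a transcription factor induced by glucocorticoids and cytokines, read 310.1 there, against 1440 to 2182 on the other controls. Il6, the cytokine that drives the acute-phase response, read 2.5 on control 3, against 169.1 to 1119 on the other controls and 88.6 to 418.0 on the diabetic arrays. For the regulators of metallothionein transcription, control 3 was the lowest control in 0 of 10. It was also not the lowest for any of the 10 smooth muscle, 7 endothelial, 17 epithelial or 8 fibroblast markers tested. It was the lowest for 2 of 6 blood markers, and for 1 each of 11 skeletal muscle, 5 adipocyte and 8 macrophage markers. The blood markers were S100a8, at 1.5 against 80.9 to 1091 on the other controls, and S100a9, at 22.1 against 356.2 to 3459. The part of these genes and markers in the Mt2A spread was not tested.

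By the same measure of likeness, Pearson r of deviations from group means over 10 arrays among 8209 probe sets, the genes most like Mt2A were Il6 (r = 0.98), Bcr (r = 0.98) and Ifrd1 (r = 0.98). Their Spearman rho was 0.93, 0.92 and 0.89. Leaving out control arrays 1 and 3, the 2 arrays farthest from the Mt2A median, the r was 0.96 for Il6, 0.90 for Bcr and 0.92 for Ifrd1. The genes most like the shared probe set were Crem (r = 0.97), Klf9 (r = 0.97) and Ccn2 (r = 0.97). Without diabetic array 5 and control array 3, the 2 farthest from its median, their r was 0.76, 0.86 and 0.72. All these values share their libraries, and they are the highest of many, so they are a description.

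**Figure D4:**
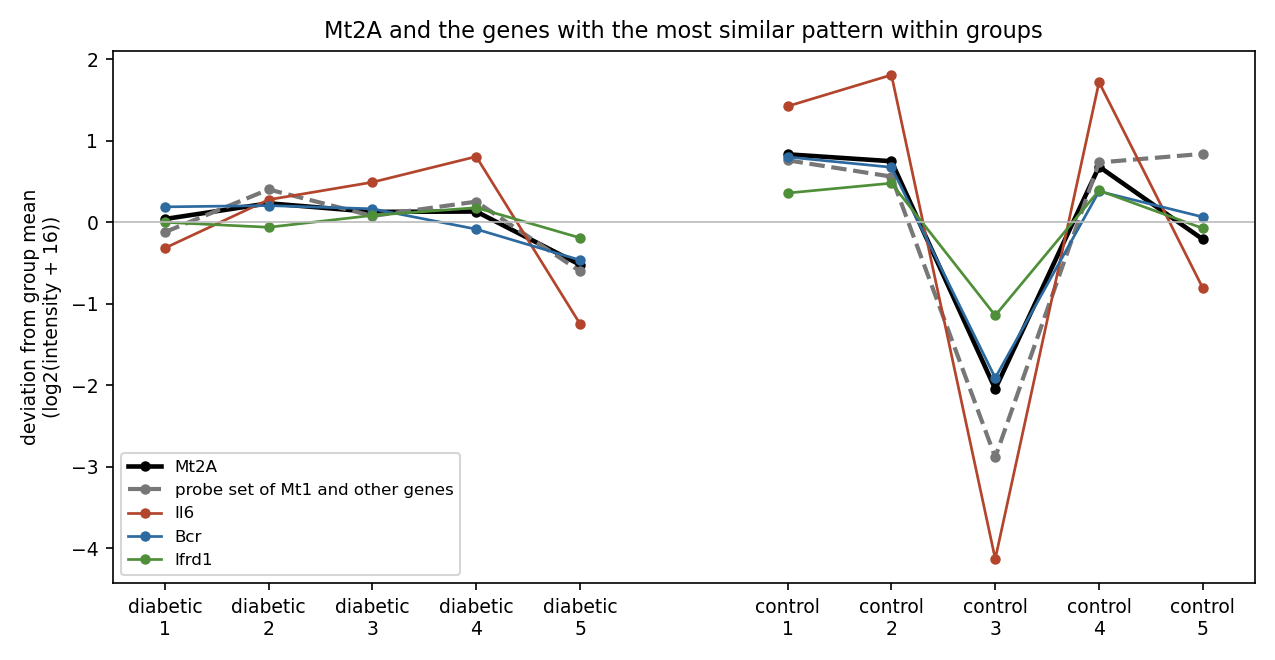
Deviation from the group mean, in log2(intensity + 16), of Mt2A, of the probe set that Mt1 shares with other genes, and of Il6, Bcr and Ifrd1 on the 5 diabetic and 5 control arrays. All 5 lines have their lowest point at control array 3, where Il6 read 2.5 and Mt2A 946.4.

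Mt3, the metallothionein first described as a growth inhibitory factor of the brain, was dimmer on most diabetic arrays. Its intensities were 110.6, 123.5, 84.9, 104.3 and 89.6 on the diabetic arrays, against 247.3, 240.2, 170.4, 178.3 and 107.3 on the control arrays. The groups overlapped through control array 5 alone, and 3 of 5 diabetic arrays were below the lowest control. The mean was 103 ± 15.7 in diabetic and 189 ± 57.3 in control tissue (SD, n = 5 each), a difference of -0.75 ± 0.20 on the log2 scale. Within scan day 1 it was -0.37, from 1 diabetic and 2 control arrays. Day 2 gave -0.62 from 1 array of each group, and day 3 gave -0.96 from 2 of each. Within stations 1 and 2 it was -0.51 and -0.78. Control array 5 was scanned on day 1 at station 1, so on days 2 and 3 and in station 2 the sign could only be negative.

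Markers of other cells varied beside Mt3 across the arrays. Its highest values were on control arrays 1 and 2, which had the lowest epithelial means (6.01 and 6.40 on the log2 scale), and control array 5, its lowest control, had an epithelial mean of 10.03. Against controls 3 and 5 alone the difference was -0.36, and with the epithelial mean as a covariate it was -0.40. Among 8 fibroblast genes, the collagen genes Col1a1, Col1a2 and Col3a1 differed by -2.05, -1.81 and -1.35, and the others by -0.32 to -0.0087. The mean of the 8 was 9.81 to 10.45 on the diabetic arrays and 10.43 to 11.22 on the control arrays. With that mean as a covariate the Mt3 difference was -0.08. All 17 epithelial genes tested had positive differences and all 8 fibroblast genes negative ones, and with limma 0 of either list passed the adjusted threshold, while 11 and 3 had an unadjusted p under 0.05, against 17.5% of all tested probe sets. The fibroblast covariate was chosen after the values were seen, and its own collagen genes differed between the groups. The genes with the pattern most like Mt3 within groups were Cst3 (r = 0.94), Ecm1 (r = 0.94) and Col5a2 (r = 0.92), of which Ecm1 and Col5a2 encode matrix proteins. Without control arrays 1 and 5 their r was 0.81, 0.80 and 0.76. The part of the fibroblast and epithelial signal in the Mt3 difference was not tested.

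**Figure D5:**
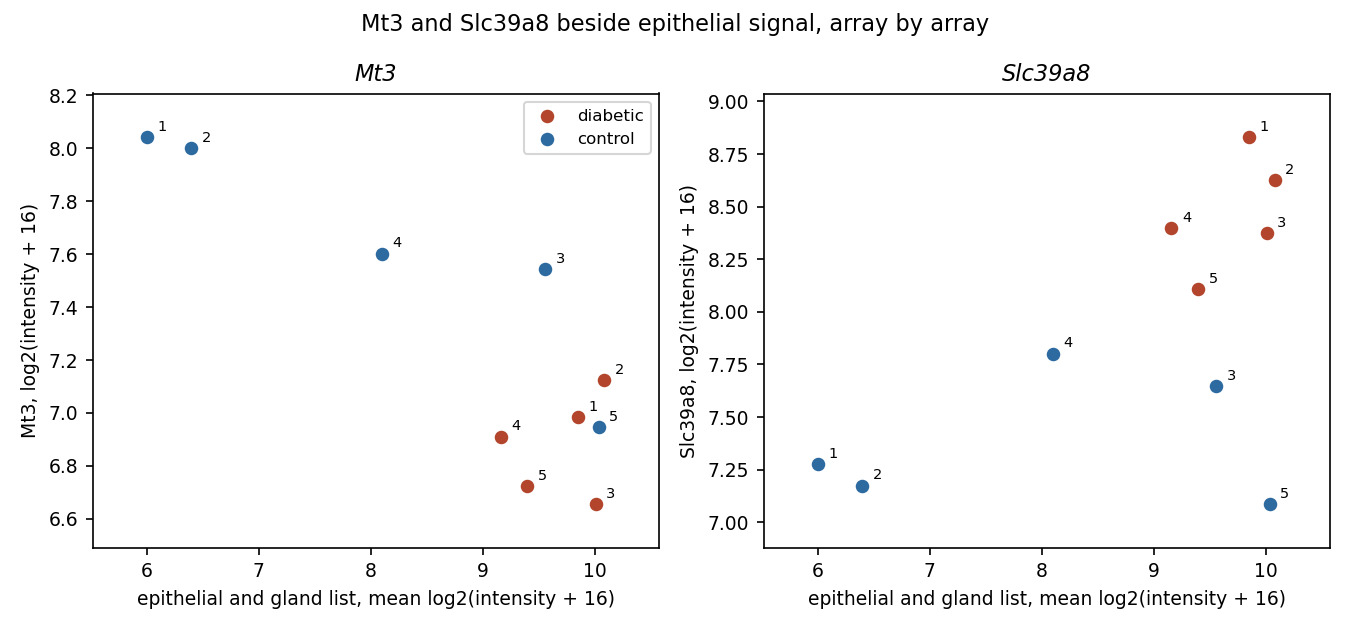
Mt3 (left) and Slc39a8 (right) in log2(intensity + 16) against the mean of 17 epithelial and gland genes on the same scale, with one numbered point per diabetic (red) and control (blue) array. Control array 5, at an epithelial mean of 10.03, lies among the diabetic arrays for Mt3 and, like every control array, below all of them for Slc39a8.

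The genes closest to Slc39a8 within groups were Nmnat3 (r = 0.95), which makes the cofactor NAD, Eno2 (r = 0.92), a glycolytic enzyme, and Rexo1 (r = 0.87). Their own differences between groups were small: 0.12 for Nmnat3, -0.14 for Eno2 and 0.21 for Rexo1, against 1.07 for Slc39a8. Without diabetic array 1 and control array 4 the r was 0.91 for Nmnat3, 0.95 for Eno2 and 0.73 for Rexo1. Those closest to Slc30a1 were Pla2g10 (r = 0.92), a secreted phospholipase, Fkbp9 (r = 0.90) and Trim47 (r = 0.89). Without diabetic array 4 and control array 1 the r was 0.82 for Pla2g10, 0.77 for Fkbp9 and 0.94 for Trim47. Among the members themselves, Mt2A and Slc30a1 had an r of 0.44 and a rho of 0.69, and Mt3 and Slc30a1 had an r of 0.52 and a rho of 0.75. Without control arrays 1 and 3 the r of Mt2A with Slc30a1 was 0.36. That of Mt3 with Slc30a1 was 0.42 without control arrays 1 and 5. Slc39a8 had an r of -0.10 with Mt2A, 0.25 with Mt3 and 0.12 with Slc30a1. The first was 0.35 without control array 3, and the second was 0.06 without control arrays 1 and 5.

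No factor that acts on metallothionein genes passed the test. Of 10 listed regulators, all on the array and tested, 0 passed the adjusted threshold in limma, 2 had an unadjusted p under 0.05, near the 17.5% of all tested probe sets, and the median difference was 0.16. Mtf1, which encodes MTF-1, read 191.7, 156.3, 171.1, 165.7 and 166.2 on the diabetic arrays, against 113.1, 134.8, 132.4, 156.0 and 96.5 on the control arrays. The groups did not overlap, by a gap of less than 1 intensity unit, as 2.36% of all tested probe sets did in the same direction. Its difference was 0.40 ± 0.12 (limma adjusted p = 0.154). Nfe2l2, which encodes the oxidant-sensing factor NRF2, averaged 709 ± 119 in diabetic and 566 ± 23.2 in control tissue (SD, n = 5 each). The difference was 0.30 ± 0.12 (limma adjusted p = 0.233). Its groups also barely missed overlap, with a lowest diabetic value of 594.9 and a highest control value of 594.3.

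Genes that share inducers with the metallothioneins were read by list. Of 13 tested glucocorticoid-induced genes, 1 rose past the adjusted threshold in limma, against 0.217% of all tested probe sets, and all 13 differences were positive, against 5593 of the 9683 tested probe sets. The list's median difference was 0.28, and without control 3, the lowest control for 10 of these genes, it was 0.12. That gene was Pdk4, the kinase that switches off pyruvate dehydrogenase in fasting and insulin lack, at 1498 ± 378 in diabetic and 303 ± 156 in control tissue (SD, n = 5 each), a difference of 2.37 ± 0.34 (limma adjusted p = 0.0372). Of 6 tested cytokine and acute-phase genes, 0 passed in limma and 0 had an unadjusted p under 0.05. The smallest p-values there belonged to Il6st, a receptor subunit shared by Il6-type cytokines, at 0.32 ± 0.22 (limma adjusted p = 0.451), and to Lcn2, an iron-binding acute-phase protein, at 0.24 ± 0.19 (limma adjusted p = 0.493). The list's median difference was 0.14, and without control 3 it was -0.17. Of 9 oxidant and metal stress genes, 0 passed in limma and 2 had an unadjusted p under 0.05, near the 17.5% of all tested probe sets, with a median difference of 0.07. These were Nqo1, a quinone reductase, at 0.38 ± 0.12 (limma adjusted p = 0.159), and Gsr, glutathione reductase, at 0.78 ± 0.26 (limma adjusted p = 0.188).

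Iron, copper and manganese handling genes are of interest here because ZIP8 and ZIP14 also carry iron and manganese. Of 14 tested, 1 rose and 1 fell past the adjusted threshold in limma, against 0.217% higher and 0.207% lower of all tested probe sets. Cp, the copper-bearing ferroxidase ceruloplasmin, averaged 1947 ± 607 in diabetic and 660 ± 195 in control tissue (SD, n = 5 each), a difference of 1.52 ± 0.24 (limma adjusted p = 0.0384). Tfrc, the transferrin receptor for iron uptake, averaged 474 ± 53.9 in diabetic and 1392 ± 578 in control tissue (SD, n = 5 each), a difference of -1.44 ± 0.23 (limma adjusted p = 0.0396). Slc40a1, the iron exporter ferroportin, differed by 0.03 ± 0.16. The list's median difference was 0.02. The limma adjusted p of Pdk4, Cp and Tfrc was under 0.05 in 12, 9 and 10 of 23 alternative settings. Over these settings their differences ran from 1.91 to 3.18, from 0.77 to 1.79 and from -1.60 to -0.95. The groups did not overlap in any of these genes, so leaving out arrays could not turn a sign.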

How the data were processed

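Total RNA of 10 samples was measured on 10 one-colour arrays. The authors deposited 1 intensity per probe set and array, on a linear scale. For the software behind them, the sources used here give no name. Each array had the same trimmed mean of 249.9 over the probe sets, leaving out 2% at each end. Scan days and stations came from the deposited scanner headers.

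Control probe sets (57) were left out, and intensities below 1 were set to 1. Of 15866 probe sets, 12783 had 1 annotated gene, 312 several and 2771 none. Symbols of 12754 were updated through Entrez numbers. Values were used as log2(intensity + 16) without rescaling. Probe sets above the 40th percentile (85.9) on at least 5 arrays were fitted with limma 3.58.1 in R 4.3.3 (lmFit, eBayes with trend; two-sided; Benjamini-Hochberg over all 9683; threshold 0.05). The procedure was tested on simulated data. Gene lists were described by counts and medians, and named genes were those past the threshold, else the 2 with the smallest p, plus every zinc transporter and the 3 genes most like each member. Genes named besides these were chosen after their values were seen. Members and lists were chosen with earlier results of these data known. Alternatives covered pseudocount, filter, scaling, trend, scan day, station, epithelial and fibroblast covariates and left-out arrays. The fibroblast covariate and leaving out controls 1, 2 and 4 were chosen after seeing the data. Promoters came from RefSeq (GRCr8).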

Additional observations from a re-analysis of the deposited data

Results flagged for a closer look

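Among 38 groups of 5 arrays checked over 19 probe sets, 2 held an array far from the others, where the gap to its nearest neighbour over the group's whole range exceeded 0.71 on the log2 scale. Chance alone flags about 1 in 20 groups. In the diabetic group, Mt2A on array 5 (3080) lay below the other 4 (4551 to 5204), with a ratio of 0.744. In the control group, the probe set that Mt1 shares with other genes read 418.9 on array 3 and 4716 to 5724 on the other 4, with a ratio of 0.925. Mt2A was also lowest among the controls on array 3 (946.4), where the ratio did not pass.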

How the results depend on the processing

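The Slc39a8 difference ran from 0.889 to 1.17 over the 23 alternatives. As its groups did not overlap, leaving out arrays or changing the pseudocount could not turn its sign. The filter and trend settings do not enter the difference. Leaving out 1 array at a time gave -0.0088 to 0.10 for Slc30a1, -0.92 to -0.64 for Mt3 and -0.35 to 0.37 for Mt2A. The number of probe sets called was 41; it was 22 with a pseudocount of 1, 26 with no filter, 20 with the epithelial covariate and 21 without controls 1, 2 and 4. It was 0 with scan day as a block (1119 at an unadjusted limma p under 0.05), with station as a block (1483), without controls 1 and 2 (773) and with the fibroblast covariate (792). Leaving out diabetic arrays 1 to 5 in turn gave 2, 0, 0, 13 and 6 calls, against 0, 1, 24, 8 and 1068 for control arrays 1 to 5, with 1098 to 3155 at an unadjusted limma p under 0.05. Of the 23 alternatives, the limma adjusted p of Pdk4 stayed under 0.05 in 12, that of Cp in 9 and that of Tfrc in 10. Median centring turned the 21 higher and 20 lower calls into 13 higher and 30 lower.

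With the fibroblast covariate, Mt1 differed by -0.045, Mt3 by -0.081 and Slc30a1 by 0.32. Mt3 was -0.40 with the epithelial covariate, and without controls 1, 2 and 4 Mt3 was -0.36 and Mt2A 1.29. The ZIP median was -0.081 with a 60th percentile filter, -0.18 with the epithelial and -0.23 with the fibroblast covariate, -0.17 without controls 1 and 2 or 1, 2 and 4, and -0.071 to 0.18 with 1 array left out. The ZnT median was -0.017 with the epithelial and -0.081 with the fibroblast covariate, 0.070 without controls 1 and 2 and -0.074 without 1, 2 and 4. The cytokine median was 0.99 without controls 1, 2 and 4 and -0.17 without control 3, where the glucocorticoid median was 0.12. The oxidant median was 0.31 with the epithelial covariate, 0.26 with the fibroblast covariate and 0.38 without controls 1, 2 and 4. The iron, copper and manganese median was 0.35 with the 60th percentile filter and 0.14 with station as a block. The cause of these shifts was not tested. No paired analysis was possible because the titles of the groups share only 1 number, and the replicate numbers used here only count the samples as deposited. Low intensities, such as that of Mt1, limit what can be read.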
